A study of Homo sapiens with 6 samples.

Results

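The RNAs of 9 genes for proteins that hold or bind messenger RNA at, in or near mitochondria and the endoplasmic reticulum (ER) were followed here through an RNA immunoprecipitation: CLUH, AKAP1, RRBP1, LARP1, LARP4, LARP4B, PTCD3, LRPPRC and SLIRP. They are given by name, and each matched 1 row by symbol, so the set held 9 of 60671 gene rows. All 9 passed the filter on low counts. The study precipitated RNA from HEK cells (human embryonic kidney origin) with an antibody to the myc tag, clone 4A6, and sequenced it after depletion of ribosomal RNA. The cells had been transfected with calcium phosphate. Of the 6 libraries, 3 carry the name wild-type control (WT.Control) and are labelled untreated, and 3 carry the name SYNJ2BP AAA mutant (AAA.mito). SYNJ2BP is a protein of the outer mitochondrial membrane that binds the phosphatase SYNJ2. The labels do not say what the control cells express, which residues AAA stands for, what "mito" means in the mutant names or whether replicates were separate cultures. The groups may therefore differ in more than the mutation, and p-values cover the spread between these libraries, part of which may be technical. Input RNA was not analysed here, so a smaller amount of a transcript in the cells, fewer cells holding it and a weaker recovery of it cannot be told apart.

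The proteins made from these 9 genes act at different steps. CLUH is a cytosolic protein that binds mRNAs for nuclear-encoded mitochondrial proteins. AKAP1 sits in the outer mitochondrial membrane, where it anchors protein kinase A and binds RNA, and RRBP1 is an ER membrane protein that binds ribosomes and is a known partner of SYNJ2BP. LARP1, LARP4 and LARP4B are La-related proteins. LARP1 binds mRNAs that start with an oligopyrimidine tract, such as those of ribosomal proteins. LARP4 binds poly(A), and LARP4 and LARP4B bind the poly(A)-binding protein. PTCD3 belongs to the small subunit of the mitochondrial ribosome, and LRPPRC and SLIRP form a complex that stabilizes mRNAs made from mitochondrial DNA. The values below are amounts of the RNA of these genes, not of their proteins and not of the RNAs that the proteins bind.

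None of the 9 RNAs passed the test between mutant and control. The test was edgeR's quasi-likelihood fit of all 33375 tested genes, adjusted by the Benjamini-Hochberg method with a threshold of 0.05. It called 0 of 9 members and 0% of all genes. An unadjusted p under 0.05 was met by 0 of 9 members and by only 25 of the 33375 genes, so this 0 does not set the members apart. Libraries with the same replicate number deviated together, and a fit that took this number as a block called 1.4% of all genes lower and 0.00599% higher in the mutant, but again 0 of 9 members. Among the genes lying far above background, defined below, 8.54% were called lower and 0.0457% higher with the block. RRBP1 and CLUH had the lowest values in both fits. In the blocked one an unadjusted p under 0.05 was met by these 2 members and by 3347 of the 33375 tested genes. The remaining 7 ranged from LRPPRC at −0.71 to LARP4 at 0.17 on the log2 scale of the blocked fit. DESeq2 with the same block called RRBP1 (−1.01 ± 0.29 SE, adjusted p = 0.0202) and CLUH (−0.86 ± 0.25, adjusted p = 0.0279) lower, against 1.59% of all genes. DESeq2 without the block called 0 of 9. None of the 9 had an unadjusted p under 0.05 there, as only 70 of the 33375 tested genes did.

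How far a count can be read depends on the library. Total counts ran from 3287218 to 73331652. The density of counts along 381 olfactory receptor genes, which few cells outside the nose transcribe, served as background, and it supplied 84.4% and 81.8% of nuclear gene counts in control and mutant replicate 2, 37.9% and 55.5% in replicate 1, and 7.48% and 6.61% in replicate 3. A gene's height over background is its count divided by the count that this density predicts for its whole span, and genes whose average height exceeded 8 are called far above background. Of 10 markers listed for HEK cells, 8 lay more than 8 times above background in control replicate 3 and 6 in mutant replicate 3, but 0 in either replicate 2. The summed HEK list lay between 1.31 and 21.0 times background in the control and between 1.42 and 19.0 times in the mutant libraries, and the summed lists for neurons, astrocytes, blood, fibroblasts and hepatocytes reached at most 3.06, 1.31, 1.41, 3.71 and 1.30 times. Single markers of 3 of these lists passed 8 times in control and mutant replicate 3: GAD1 of neurons (9.57 and 10.7), CD68 of blood (19.4 and 23.2) and COL1A1 of fibroblasts (16.8 and 17.3). COL1A1 also passed in control and mutant replicate 1, at 13.4 and 8.81 times. The part of these lists in the results was not tested.

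All 9 RNAs stood clearly over background in both replicate 3 libraries, at 36.9 to 123 times in the control and 28.2 to 104 times in the mutant. Replicate 1 was lower, at 3.46 to 68.3 times in the control and 2.42 to 20.9 times in the mutant. In replicate 2 heights began at 1.34 and stayed under 3 times in the control and ran from 1.02 to 2.32 times in the mutant, so background is a large part of the counts behind the pair 2 values below. There the 95% exact Poisson interval, which covers counting error only, lay above background for 9 of 9 genes in the control and 6 of 9 in the mutant. The exceptions were RRBP1, PTCD3 and SLIRP in mutant replicate 2. By average height 4 of the 9 were far above background: CLUH (21.0), LRPPRC (11.7), LARP1 (10.8) and AKAP1 (9.01), while the others lay between 4.99 for SLIRP and 6.66 for PTCD3. CLUH had the greatest height of the 9 in 5 libraries, and AKAP1 had it in mutant replicate 2.

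**Figure D1:**
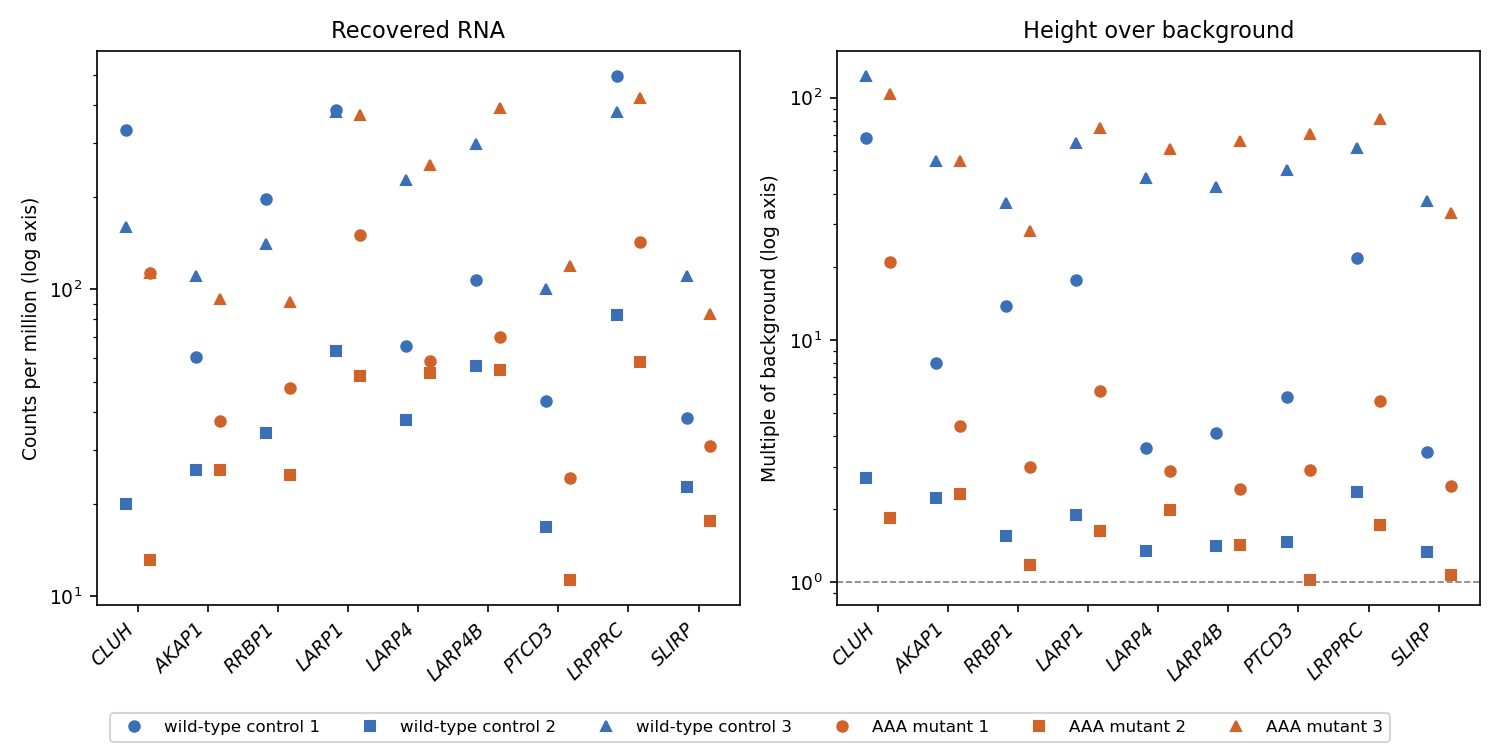
Recovered RNA of the 9 genes in each library, as CPM with TMM factors (left) and as multiples of the background expected over the gene's span (right), both on log axes; blue is wild-type control, orange is AAA mutant, and circles, squares and triangles are replicates 1, 2 and 3. Squares lie near the dashed line of 1 on the right for every gene, and triangles lie highest there.

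RRBP1 showed the largest difference of the 9. Its counts were 2737, 509 and 5852 in control replicates 1, 2 and 3 and 418, 108 and 4902 in mutant replicates 1, 2 and 3. In CPM, counts scaled to library size with TMM factors, these were 197, 34.1 and 141 in the control and 47.6, 24.9 and 91.0 in the mutant. The mutant library was the lower one in each pair, but the groups overlapped, because control replicate 2 lay below mutant replicates 1 and 3. The pair differences, mutant minus control in log2 CPM, were −2.05, −0.45 and −0.63 for pairs 1, 2 and 3. The control mean was 124 ± 82.8 CPM and the mutant mean 54.5 ± 33.6 CPM (SD, n = 3). The log2 fold change of RRBP1 was −1.18 ± 0.82 (SE, edgeR, adjusted p = 1.00 over all genes) without the block and −1.05 ± 0.30 (adjusted p = 0.0714) with it. Leaving out pair 1 moved the blocked value to −0.62 ± 0.41, and scaling from genes far above background moved it to −0.55 ± 0.38. It was −1.17 ± 0.54 without pair 2, −1.30 ± 0.37 without pair 3 and −1.46 ± 0.47 with background subtracted. None of these fits called RRBP1. Set against the blocked fold changes of the 3043 protein-coding genes far above background, whose median was −0.56, RRBP1 lay at the 10.3rd percentile, though its own average height of 6.53 keeps it out of that set.

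RRBP1 (ENSG00000125844) lies on the minus strand of chromosome 20, 17613678 to 17682295, in GENCODE release 29 on GRCh38, the reference used for all positions here. It spans 68.6 kb, of which 6.98 kb or 10.2% is exonic. Part of its coding sequence is a tandem repeat, which is shown because a read that lies wholly inside it can match several places of the same gene. In transcript RRBP1-204 the repeat of 30 bases runs over 787 bases of exon 3, from 17658923 to 17659709. Of the 738 windows of 50 bases in that tract, 25.3% occurred more than once in the transcript. The stretch below, chr20:17659407-17659526, holds 4 units that are the same letter for letter, with every other unit in capitals to show where each begins.
RRBP1 repeat: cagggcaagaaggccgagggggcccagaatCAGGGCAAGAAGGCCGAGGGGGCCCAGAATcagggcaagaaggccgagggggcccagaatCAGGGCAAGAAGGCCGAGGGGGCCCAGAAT
How reads with several matches were counted is not stated in those sources. None of 5698 windows of 50 bases from RRBP1 coding transcripts occurred in a transcript of another gene. Exact matches that long thus did not mix these transcripts with those of other genes in this annotation. Sequence outside annotated transcripts was not searched.

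CLUH, the cytosolic binder of mRNAs for mitochondrial proteins, had the second lowest value. It had 4597, 299 and 6607 counts in control replicates 1, 2 and 3 and 994, 57 and 6111 in mutant replicates 1, 2 and 3. In CPM these were 331, 20.0 and 159 in the control and 113, 13.2 and 113 in the mutant. Control replicate 1 stood apart upward, at more than any other library of either group. The groups overlapped, since control replicate 2 lay below mutant replicates 1 and 3. The pair differences of CLUH were −1.55, −0.60 and −0.49, lower in the mutant in 3 of 3 pairs. The group means were 170 ± 156 and 80.0 ± 57.9 CPM (SD, n = 3). The log2 fold change of CLUH was −1.09 ± 1.06 (SE, edgeR, adjusted p = 1.00) without the block and −0.89 ± 0.31 (adjusted p = 0.167) with it. Without control replicate 1 the unblocked value was −0.19 ± 1.19, and without pair 1 the blocked value was −0.61 ± 0.42. With scaling from genes far above background the blocked value of CLUH was −0.38 ± 0.40. It was −1.13 ± 0.29 without pair 3 and −0.91 ± 0.37 with background subtracted, and CLUH was called in neither fit.

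CLUH (ENSG00000132361) lies on chromosome 17, 2689386 to 2712663, on the minus strand, and 29.6% of its span is exonic, the highest share of the 9. The annotation holds 9 pseudogenes named after CLUH, whose counts in all libraries summed to 15.9% of those of CLUH. CLUHP3 on chromosome 16 had most of them, with 192, 48 and 1059 counts in the control and 68, 24 and 1189 in the mutant. The nearest stretch of 60 bases between the CLUH coding sequence (chr17:2698224-2698283, exon 10 of CLUH-202) and CLUHP3 (chr16:31708212-31708271) had 54 identical bases. It is shown to let a reader judge how well short reads separate the copies, with capitals for the bases that differ.
CLUH: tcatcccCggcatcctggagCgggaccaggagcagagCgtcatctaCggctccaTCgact
CLUHP3: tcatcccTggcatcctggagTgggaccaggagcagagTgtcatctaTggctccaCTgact
No window of 50 bases was shared between the transcripts of CLUH and CLUHP3. The pair differences of CLUHP3 were −0.83, 0.78 and −0.21, so in pair 2 it differed from CLUH in direction. Of all CLUH windows, 2.22% lay in a transcript of another gene, an antisense RNA at the same locus.

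AKAP1, the anchor of protein kinase A on the outer membrane, differed little between the groups. Its counts were 839, 386 and 4598 in the control and 328, 112 and 5020 in the mutant replicates 1, 2 and 3. In CPM it measured 60.4, 25.9 and 111 in the control and 37.4, 25.9 and 93.2 in the mutant. The replicate 3 libraries were highest in both groups, and the replicate 2 libraries gave nearly the same value. The pair differences were −0.69, −0.00027 and −0.25, and the sign in pair 2 carries no weight at that size. The log2 fold change of AKAP1 was −0.33 ± 0.77 (SE, edgeR, adjusted p = 1.00) without the block and −0.32 ± 0.25 (adjusted p = 0.834) with it. AKAP1 (ENSG00000121057) lies on the plus strand of chromosome 17, 57085092 to 57121349, and shares 4281 bases with an antisense gene that had 57, 24 and 261 counts in the control and 13, 4 and 395 in the mutant.

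The 3 La-related genes did not share a sign in the blocked fit, though LARP4 and LARP4B lay there within their SE of 0. All 3 were lower in the mutant library of pair 1. LARP1 had 5350, 942 and 15697 counts in control replicates 1, 2 and 3 and 1322, 227 and 19962 in mutant replicates 1, 2 and 3. In CPM these were 385, 63.1 and 378 against 151, 52.4 and 371. The groups thus differed in pair 1 and hardly in pair 3, with pair differences of −1.35, −0.27 and −0.03. The log2 fold change of LARP1 was −0.53 ± 0.94 (SE, edgeR, adjusted p = 1.00) without the block and −0.55 ± 0.35 (adjusted p = 0.712) with it, which is near the median of protein-coding genes far above background. LARP1 (ENSG00000155506) is on chromosome 5, 154712902 to 154817607.

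LARP4 was the member with the highest blocked value. Its CPM was 65.4, 37.5 and 227 in control replicates 1, 2 and 3, beside 58.7, 53.6 and 254 in mutant replicates 1, 2 and 3. The mutant library was the lower one in pair 1 and the higher one in pairs 2 and 3, with differences of −0.16, 0.51 and 0.16. The log2 fold change of LARP4 was 0.15 ± 0.91 (SE, edgeR, adjusted p = 1.00) without the block and 0.17 ± 0.28 (adjusted p = 0.972) with it. That places it at the 98.8th percentile of protein-coding genes far above background, a set that LARP4 itself, at an average height of 6.54, does not belong to, and is given as a description with no test. LARP4B had control values of 107, 56.3 and 298 CPM and mutant values of 70.2, 54.7 and 390 CPM. Its pair differences went from −0.61 in pair 1 through −0.04 in pair 2 to 0.39 in pair 3. Its log2 fold change was 0.16 ± 0.96 without and −0.08 ± 0.31 (adjusted p = 0.987) with the block, so its sign rested on the fit.

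LARP4 (ENSG00000161813, chromosome 12, 50392383 to 50480004) and LARP4B (ENSG00000107929, chromosome 10, 806914 to 931705) are paralogs, and their centred log2 CPM over the 6 libraries differed by 0.23 (root mean square), the third smallest value of the 36 pairs of members. Their nearest coding stretch of 60 bases, chr12:50437744-50437803 in exon 6 of LARP4-204 and chr10:836438-836497 in exon 8 of LARP4B-211, had 46 identical bases. It is shown because paralogs this close could share reads, with capitals for the bases that differ.
LARP4: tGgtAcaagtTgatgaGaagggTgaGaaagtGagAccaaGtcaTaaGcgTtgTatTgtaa
LARP4B: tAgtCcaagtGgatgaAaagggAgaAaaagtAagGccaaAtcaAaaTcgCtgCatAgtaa
No window of 50 bases was common to the transcripts of both, so exact matches of that length told these transcripts apart. The rest of the spans was not searched. LARP4 shared 124 windows with its processed pseudogene LARP4P, whose counts summed to 0.332% of those of LARP4. LARP4 also overlaps 4240 bases of FAM186A on the opposite strand, with 0 bases in exons of both.

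The 3 genes whose proteins work in the mitochondrial matrix were all lower in the mutant library of pair 1, and LRPPRC and PTCD3 were higher in that of pair 3. LRPPRC had 6889, 1234 and 15714 counts in control replicates 1, 2 and 3 and 1252, 252 and 22685 in mutant replicates 1, 2 and 3. In CPM these were 496, 82.7 and 379 against 143, 58.2 and 421. LRPPRC was thus far lower in the mutant library of pair 1 and slightly higher in that of pair 3, with differences of −1.80, −0.51 and 0.15. Its log2 fold change was −0.62 ± 0.94 (SE, edgeR, adjusted p = 1.00) without the block and −0.71 ± 0.37 (adjusted p = 0.569) with it, and −0.25 with the block and without pair 1. LRPPRC (ENSG00000138095) is on chromosome 2, 43886508 to 43996005. Its profile over the 6 libraries lay closest to that of LARP1, at a root mean square difference of 0.17, the smallest of the 36 pairs.

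SLIRP, the partner of LRPPRC, did not follow it in size. SLIRP had 38.2, 22.6 and 111 CPM in control replicates 1, 2 and 3 and 30.9, 17.5 and 83.2 CPM in mutant replicates 1, 2 and 3. As counted, the differences of SLIRP were −0.31, −0.37 and −0.41, the narrowest range over pairs of the 9 genes. That range did not hold after the background subtraction described below, which gave 0.32 in pair 1 and −0.36 in pair 3. In replicate 2 SLIRP lay at only 1.34 times background in the control and 1.08 times in the mutant. Its log2 fold change was −0.38 ± 0.83 (SE, edgeR, adjusted p = 1.00) without the block and −0.36 ± 0.24 (adjusted p = 0.748) with it. Between the profiles of LRPPRC and SLIRP the root mean square difference was 0.68. SLIRP counts are uncertain: the gene (ENSG00000119705, chromosome 14, 77708071 to 77761104) is 53.0 kb long with 4.96% exons, and 43506 bases of it lie over SNW1, a splicing factor gene on the opposite strand. SNW1 had pair differences of −0.35, −0.18 and −0.13. Of 2072 windows of 50 bases in SLIRP coding transcripts, 21.4% occurred in transcripts of other genes, most of them in C14orf178 at the same locus.

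PTCD3, of the small mitochondrial ribosomal subunit, had 43.4, 16.9 and 100 CPM in control replicates 1, 2 and 3 and 24.3, 11.3 and 119 CPM in mutant replicates 1, 2 and 3. It was lower in the mutant library of pairs 1 and 2 and higher in that of pair 3, with differences of −0.84, −0.58 and 0.25. The log2 fold change of PTCD3 was −0.05 ± 0.97 (SE, edgeR, adjusted p = 1.00) without the block and −0.36 ± 0.26 (adjusted p = 0.797) with it. PTCD3 (ENSG00000132300) is on chromosome 2, 86106182 to 86142157, and its span holds the small nucleolar RNA gene SNORD94 within an intron, with 49, 2 and 401 counts in the control and 36, 0 and 507 in the mutant.

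**Figure D2:**
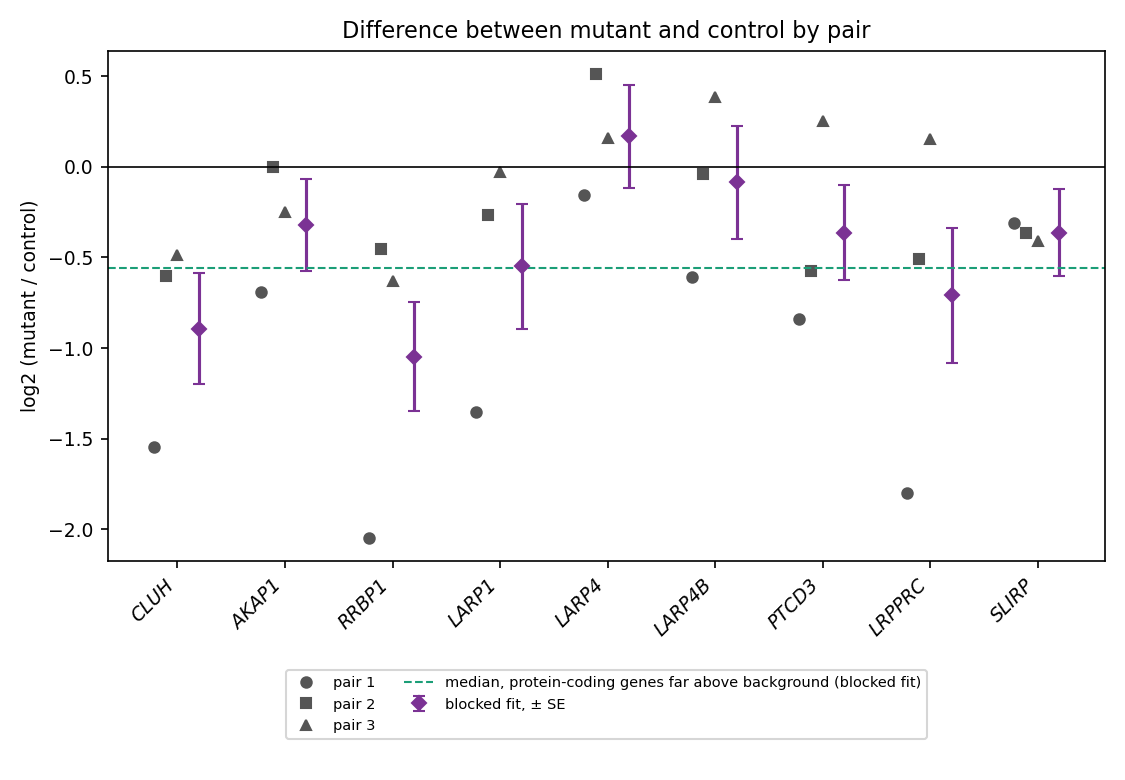
Difference between mutant and control for each gene, in log2 units, by pair (grey) and in the blocked fit (diamonds, ± SE); the dashed line is the blocked median of protein-coding genes far above background, −0.56. All 9 genes lie below 0 in pair 1, and LARP4, LARP4B, PTCD3 and LRPPRC lie above 0 in pair 3.

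Taken by pair, 9 of 9 members were lower in the mutant library in pair 1, 8 in pair 2 and 5 in pair 3, and 5 were lower in all 3 pairs: RRBP1, CLUH, LARP1, SLIRP and, with a pair 2 difference of −0.00027, AKAP1. Of all tested genes 18.2% were lower in all 3 pairs, and of those far above background 39.7%. None of the 9 was higher in all 3 pairs, as 9.9% of all tested genes were. The pattern of LARP4, LARP4B, PTCD3 and LRPPRC, lower in pair 1 and higher in pair 3, was met by 21.3% of all tested genes and 11.1% of those far above background. The members' median pair differences were −0.84, −0.37 and −0.03, beside −0.89, −0.02 and −0.69 for the protein-coding genes far above background and −0.09, −0.02 and −0.13 for all tested genes. The groups overlapped in CPM for 9 of 9 members, and 0.998% of all tested genes had groups that did not overlap. Without the block 7 of 9 members and 53.1% of all tested genes lay below 0. In the blocked fit 8 of 9 members lay below 0, as did 58.8% of all tested genes and 89.2% of those far above background. The median of the members there was −0.36, against −0.08 for all tested genes and −0.51 for genes far above background.

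Since background differed between the libraries of pair 1, the differences were also computed after subtracting it, as shares of the background-free total. These shares carry no TMM factors, which were 0.930 and 1.20 for control and mutant replicate 1. The moves given here therefore join the subtraction with a change of scaling, and these were not separated. In pair 3, where background was small, the values moved by less than 0.1 for each of the 9 genes. In pair 1 they moved upward by 0.39 for RRBP1 and by more for the others, and 6 of 9 members remained below 0. No share over all genes was computed for these values, so the 6 of 9 is a description only. RRBP1 had −1.66 in pair 1 and −0.59 in pair 3, LRPPRC −1.14 and 0.21, CLUH −0.72 and −0.44, and LARP1 −0.65 and 0.03. RRBP1 and CLUH were thus lower in both of these pairs, and LRPPRC and LARP1 in pair 1 alone. LARP4 lay at 0.57 and 0.22 and was higher in both. AKAP1 (0.0043 and −0.20), LARP4B (−0.10 and 0.45), PTCD3 (−0.30 and 0.31) and SLIRP (0.32 and −0.36) had opposite signs in the pairs. These values have 1 library per group and pair and no test.

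**Figure D3:**
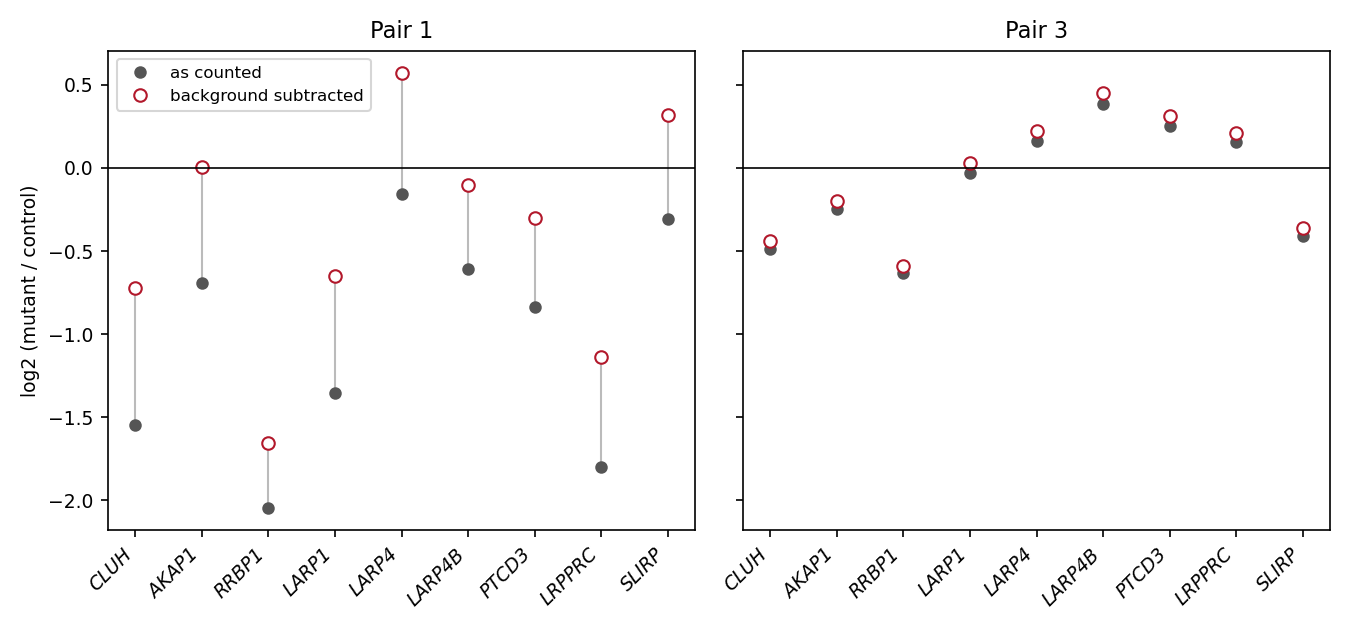
Pair differences of the 9 genes in log2 units for pairs 1 and 3. Filled points are as counted with TMM factors. Open points are after subtracting background and dividing by the background-free total, without TMM factors. In pair 1 every open point lies above its filled point, and in pair 3 each moves by less than 0.1.

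The background-free level also showed how control replicate 1 differed from control replicate 3. CLUH made up 520 CPM of the background-free total in control replicate 1 against 125 in control replicate 3. LRPPRC had 754 against 294, LARP1 579 against 294 and RRBP1 291 against 108. The order was reversed for LARP4, with 75.1 against 175, and for LARP4B, with 129 against 230, while AKAP1 was alike at 84.2 and 85.8. For CLUH, LRPPRC, LARP1, LARP4 and LARP4B these control libraries thus differed from each other by more than the mutant and control libraries did in either pair. The same held for SLIRP, with 43.3 against 84.9, and PTCD3, with 57.3 against 77.5, but not for RRBP1 or AKAP1. Gene by gene, the highest control library exceeded the lowest by 4.28-fold for AKAP1 to 16.5-fold for CLUH in CPM.

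The counts of several members in the library richest in background were near those expected from reads spread over whole genes. In control replicate 2, LARP4B had 840 counts, where background predicted 594 over the span of 125 kb and 61.1 over the exons alone. LARP4 had 560, with 417 and 38.6 predicted, and SLIRP had 338, with 252 and 12.5. Counting over whole spans, which the height over background assumes, was not stated in the sources used here. Under that assumption, long genes such as these carry more background per transcript than short ones. CPM then compares a gene with itself between libraries but not with another gene.

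Genes that work with the 9 were taken from 5 lists, 91 tested genes in all, of which 6 were called lower and 0 higher in the blocked fit; without the block 0 were called. Of 33 genes of RNA metabolism in the mitochondrial matrix 2 fell, and 31 lay below 0, with a median of −0.44. In the other lists, in the order given below, 15 of 20, 12 of 14, 7 of 11 and 8 of 13 lay below 0. The shares below 0 were 58.8% of all tested genes and 89.2% of those far above background. TBRG4, a FASTK family protein of mitochondrial RNA processing, fell by 1.44 ± 0.27 (SE, blocked edgeR fit, adjusted p = 0.00217), with pair differences of −1.66, −1.57 and −1.16. HSD17B10, a dehydrogenase that is also a subunit of mitochondrial RNase P, fell by 0.97 ± 0.26 (adjusted p = 0.0478). In mutant replicate 2, TBRG4 had 12 counts, 0.754 times background. Of 20 cytosolic RNA-binding proteins of mRNA localization and La-related proteins 1 fell: FXR2, a paralog of the fragile X protein, by 1.32 ± 0.27 (adjusted p = 0.00567), with pair differences of −1.55, −0.84 and −1.46. The list median was −0.31.

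Of 14 other ER tethers of ribosomes and mRNA, RRBP1's neighbours in function, 2 fell and the median was −0.57. LRRC59, an ER membrane protein that binds ribosomes, fell by 1.34 ± 0.35 (SE, blocked edgeR fit, adjusted p = 0.0424). Its pair differences were −2.08, 0.10 and −1.86, so pair 2 did not share the direction. SRPRA, a subunit of the receptor for the signal recognition particle, fell by 1.27 ± 0.26 (adjusted p = 0.00734), with −1.80, −1.38 and −0.71. Of 11 genes for protein kinase A and other AKAP1 partners 0 passed. The smallest p there belonged to PRKAR1A, a regulatory subunit, at −0.69 ± 0.27 (adjusted p = 0.283). Of 13 genes of the mTORC1 kinase complex and its control of the mRNAs that LARP1 binds, 1 fell: MLST8, a subunit of that complex, by 1.00 ± 0.26 (adjusted p = 0.0365). In mutant replicate 2, MLST8 had 6 counts, 0.871 times background, and SRPRA had 13, 1.57 times. Beside the shares called in the lists stand 1.4% of all tested genes and 8.54% of those far above background. To the latter, 16, 10, 5, 4 and 5 of the genes in the 5 lists belonged, in the order given. The lists were chosen with earlier results of these data known, so their shares are a description and no test. The blocked fit behind these calls had 469 genes past the threshold. With scaling from genes far above background 5 passed, and with background subtracted 0 passed.

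The genes whose profile over the 6 libraries was most like that of CLUH, by root mean square difference in centred log2 CPM among 3042 protein-coding genes far above background, were TBL3 (0.10), WDR6 (0.14) and MYBBP1A (0.15), where the median gene lay at 0.88. For RRBP1, compared with 3043 such genes, they were ZMYM3 (0.13), KIF20A (0.14) and HNRNPUL2 (0.15), with a median of 0.68. None of these 6 passed in the blocked fit, in which ZMYM3 had the smallest adjusted p, 0.0549.

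**Figure D4:**
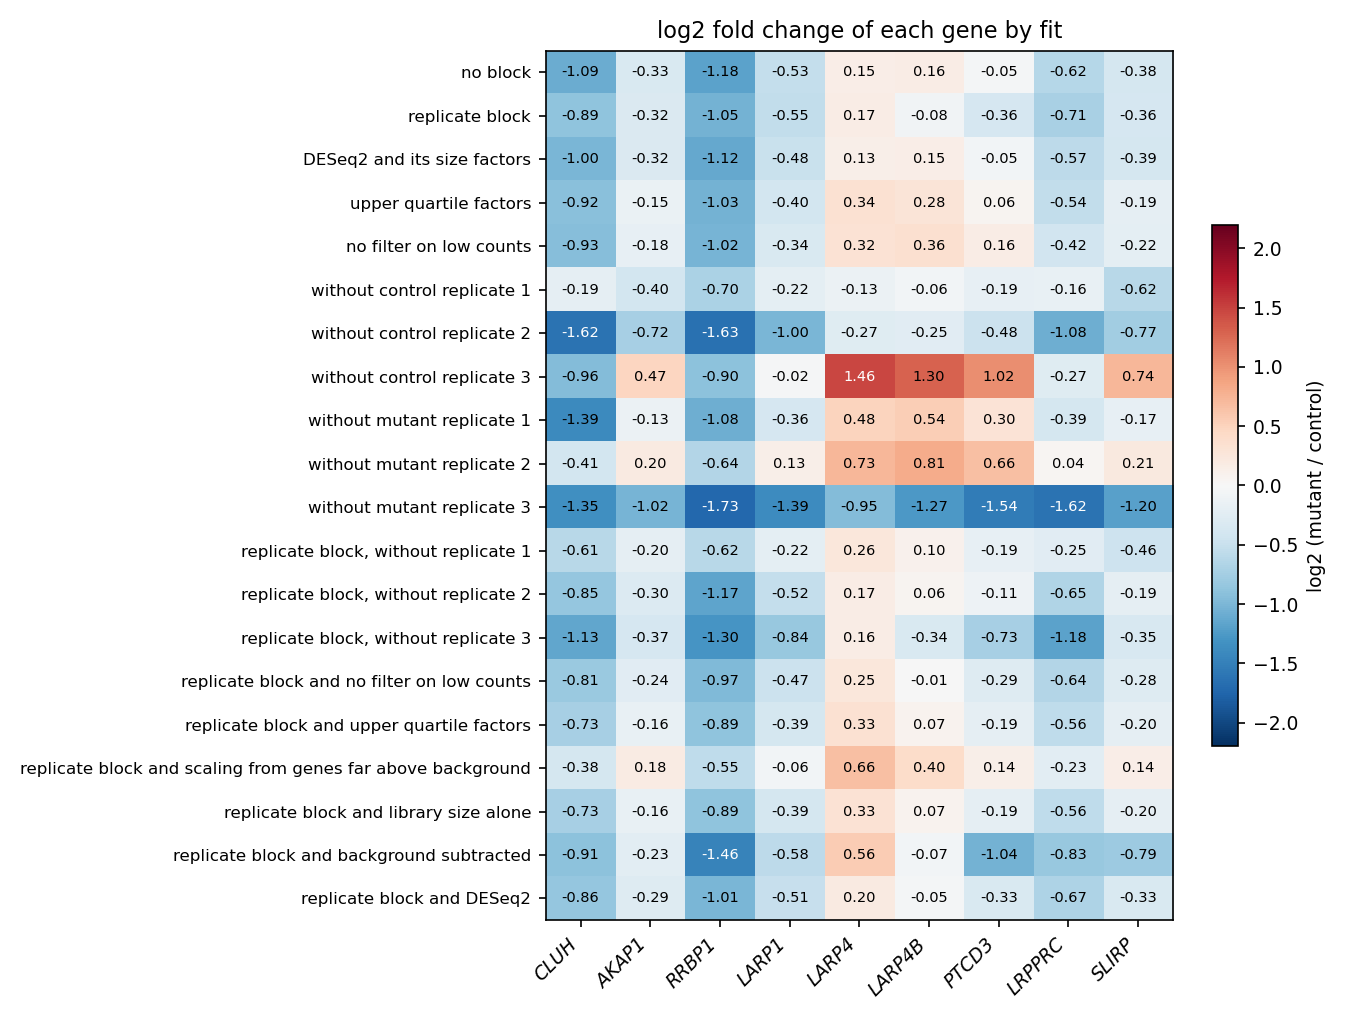
Log2 fold change of each gene, mutant against control, in the edgeR fit without the block (top row), with the block, and under each alternative; blue is lower and red higher in the mutant. RRBP1 and CLUH are below 0 in all 20 fits, which share libraries, whereas LARP4 is below 0 in 3 and LARP4B in 8 of the 20.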

How the data were processed

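The deposited table holds raw counts per Ensembl gene ID, whole numbers with no normalization by the authors, in 6 columns that were all used. FastQC, featureCounts and STAR 2.7.6a are named in the submitters' processing notes. For the counting, build, annotation, strand and overlap settings were not given in the sources used here. Gene symbols came from a table of gene IDs. GENCODE release 29 (GRCh38) gave spans, exons and sequences and covered 58453 IDs.

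Genes were tested with edgeR 4.0.16 in R 4.3.3 (filterByExpr, TMM factors, quasi-likelihood F test, Benjamini-Hochberg threshold 0.05), all 6 libraries, no block. The SE was derived as |log2 fold change|/√F, and 1 was the prior count for log2 CPM. Because groups share replicate numbers, a fit with the number as a block was an alternative. Deviations from group means of libraries with the same number correlated across genes at r = 0.41, 0.76 and 0.90, so the numbers were taken as pairs. This pairing rests on the data, not the labels. DESeq2 1.42.0 was the other tool. The coefficient of variation between libraries was 0.746 without the block and 0.249 with it. Named genes were the 9 members; up to 3 genes per list called with the block, or else the smallest p; and the 3 genes nearest in profile to CLUH and RRBP1. Members and lists were chosen with earlier results of these data known. Proteins were not printed. Windows shared between genes were exact matches of 50 bases on either strand, sought in annotated transcripts only.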

Additional observations from a re-analysis of the deposited data

How the results depend on the processing

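The count of genes past the threshold, 0 without the block, was 469 with the replicate block, 231 with the block and no filter on low counts, 312 with upper quartile factors, 288 with library size alone, 530 with DESeq2 and 5 when factors came from genes far above background. It stayed at 0 with the block and background subtracted, and in the unblocked fits with DESeq2, upper quartile factors or no filter. Leaving out single libraries without the block, or whole pairs with it, gave 0 to 259, with 37 without pair 1, 259 without pair 2 and 0 without pair 3. The pairing changed no member's call in edgeR. DESeq2 with the block called CLUH (−0.86) and RRBP1 (−1.01), whose adjusted p ranged from 0.0279 to 1 and from 0.0202 to 1 over all fits.

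Of 171 member values under alternatives, 144 kept direction and side of the threshold and 25 changed sign. LARP4B changed to −0.085 with the replicate block, −0.012 with the block and no filter, −0.069 with background subtracted and −0.047 with DESeq2 and the block. PTCD3 changed to 0.059 with upper quartile factors and 0.16 without the filter. With the block and factors from genes far above background, which moved the median of all genes from −0.08 to 0.42, AKAP1, PTCD3 and SLIRP changed to 0.18, 0.14 and 0.14, CLUH and RRBP1 were −0.38 and −0.55, beside −0.89 and −1.05 with the block alone, and 4 of 9 members lay below 0. The cause was not tested. LARP4B lay at −0.34 with the replicate block and without replicate 3. Leave-out values ran from −1.02 to 0.47 for AKAP1, −1.39 to 0.13 for LARP1, −0.95 to 1.46 for LARP4, −1.27 to 1.30 for LARP4B, −1.62 to 0.038 for LRPPRC, −1.54 to 1.02 for PTCD3 and −1.20 to 0.74 for SLIRP. Those of CLUH ran from −1.62 to −0.19 and of RRBP1 from −1.73 to −0.62. Replicate 2 limits the depth: heights there were under 3 times background, and the mutant intervals of RRBP1, PTCD3 and SLIRP reached down to it.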
